A study of Mus musculus with 27 samples.

Results

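The glutathione, sulfo and glucuronosyl transferases were followed in TAMH cells, a mouse hepatocyte line, through exposure to acetaminophen or its meta isomer. The genes were chosen by name: every probe set of the array with a single gene symbol starting with Gst, Mgst, Sult or Ugt followed by a letter or digit. A symbol with more than 1 probe set was read from the one brightest on average across the arrays. The choice gave 50 genes of the 19938 genes tested: 20 Gst, 3 Mgst, 16 Sult and 11 Ugt genes. A further 12 probe sets of these families carry several symbols, among them those of Gsta1, Gsta2, Gstp2 and the Ugt1a locus, and were not counted as members.

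TAMH cells were derived from mice transgenic for TGF-alpha, a growth factor. Cultures were exposed to 2 mM acetaminophen (APAP), to 2 mM AMAP or to control medium for 2, 6 or 24 h. APAP and AMAP are regioisomers that differ in the place of the ring hydroxyl group, para in APAP and meta in AMAP. All 9 groups share the transgene and a serum-free medium that contains dexamethasone, a glucocorticoid, so the controls carry both. Each group has 3 arrays with the numbers 30, 31 and 32, which makes 27 arrays of 1 cell line. The labels do not say that the arrays of a group came from separate cultures, so the p-values measure the spread between these samples. Of 9 hepatocyte markers, 7 were matched, and in control cells their median rank was at percentile 98.3 of all genes, with albumin (Alb) at a log2 signal of 13.68. The median rank was at percentile 22.3 for the macrophage markers, among which Cd14 reached 95.7, 25.1 for the endothelial markers, 47.7 for the fibroblast markers, among which Dcn reached 98.8, and 77.5 for the biliary markers. In these bulk samples fewer cells of a type and less RNA per cell cannot be told apart.

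These enzymes carry out the conjugation phase of detoxification. Glutathione S-transferases join glutathione to electrophiles, sulfotransferases move a sulfonate group from the donor PAPS, and UDP-glucuronosyltransferases move glucuronic acid from UDP-glucuronate, which makes their substrates water soluble and ready for export. In liver, most acetaminophen is cleared as its sulfate and its glucuronide, while the quinone imine that cytochrome P450 enzymes make from it is trapped by glutathione. The microsomal enzymes (Mgst) belong to a separate, membrane-bound family that also uses glutathione, with members involved in leukotriene synthesis.

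The promoters shown are those of the 3 members called higher with AMAP at 24 h (Gstm7, Gstm1 and Gstk1) and of Sult1c2, called lower with APAP at 6 and 24 h. Those of Gstcd and Sult1b1, which were also called, are not shown, and both hold the GCGTG letters described next. Each line gives the 250 bases before the RefSeq start on build GRCm38.p6, read 5′ to 3′ on the gene's own strand. Capitals mark the letters GCGTG, the core of the site that the aryl hydrocarbon receptor binds with its partner, and no other searched motif was found in these windows.
Gstm7 at chr3:107931818-107932067, minus strand: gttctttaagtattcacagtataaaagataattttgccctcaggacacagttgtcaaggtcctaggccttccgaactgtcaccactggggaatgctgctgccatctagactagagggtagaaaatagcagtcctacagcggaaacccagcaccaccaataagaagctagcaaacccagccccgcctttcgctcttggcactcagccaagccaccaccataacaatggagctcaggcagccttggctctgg
Gstm1 at chr3:108017974-108018223, minus strand: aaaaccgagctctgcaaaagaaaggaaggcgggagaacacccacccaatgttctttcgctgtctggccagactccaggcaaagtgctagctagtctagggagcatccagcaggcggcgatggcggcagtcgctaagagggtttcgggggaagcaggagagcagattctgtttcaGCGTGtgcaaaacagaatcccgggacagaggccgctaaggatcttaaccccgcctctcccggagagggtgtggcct
Gstk1 at chr6:42245685-42245934, plus strand: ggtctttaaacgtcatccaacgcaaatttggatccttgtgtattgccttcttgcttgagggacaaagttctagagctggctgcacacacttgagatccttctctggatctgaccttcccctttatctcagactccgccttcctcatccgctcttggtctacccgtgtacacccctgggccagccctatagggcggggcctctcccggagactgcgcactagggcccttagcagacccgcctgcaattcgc
Sult1c2 at chr17:53845959-53846208, minus strand: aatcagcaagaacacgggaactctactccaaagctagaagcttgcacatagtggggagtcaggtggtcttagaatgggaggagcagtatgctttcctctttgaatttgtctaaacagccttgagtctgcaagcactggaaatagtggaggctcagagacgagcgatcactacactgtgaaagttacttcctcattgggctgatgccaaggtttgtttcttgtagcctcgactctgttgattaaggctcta
Of these genes, Gstm7 and Gstm1 have a further annotated start downstream of the window shown. GCGTG, searched on both strands, stood 76 bases before the start in Gstm1. It was in 11 of the 59 windows that 46 members have in the RefSeq table, or 18.6%, and in 28.2% of all 32851 windows of the same length. The letters TGACNNNGC, the core of the antioxidant response element that NRF2 binds, were in 4 member windows, or 6.78%, and in 10.2% of all windows. The 4 genes were Gsta3, Gstm5, Mgst1 and Gstm7, the last in the window of its downstream start. TGACTCA, the AP-1 site, was in 6 member windows, or 10.2%, and in 4.46% of all windows. A match of letters describes the sequence and shows no binding.

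Signal is given as log2 of the normalised probe set intensity. Probe sets differ in brightness, so levels are compared between groups within a gene and not between genes. A mean signal of at least 6 over the 27 arrays was found for 19 of 20 Gst genes, 3 of 3 Mgst genes, 6 of 16 Sult genes and 3 of 11 Ugt genes. In all, 19 of the 50 members lay below 6, or 38%, against 26.1% of all genes. The Gst gene below 6 was Gstm6. The Sult genes at or above 6 were Sult1a1, Sult1c2, Sult1d1, Sult2b1, Sult4a1 and Sult5a1, and the Ugt genes were Ugt2b34, Ugt2b35 and Ugt2b36.

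Replicate arrays correlated with r between 0.992 and 0.997, and array medians lay between 6.92 and 7.07. On the first principal component the APAP array 31 at 24 h stood apart from the rest, and the arrays numbered 32 at 6 h stood apart on the fourth. Differences below come from a limma model of the 9 group means on all 27 arrays, with p-values adjusted by Benjamini-Hochberg over 19938 genes and a call at an adjusted p under 0.05. The median standard error of a difference was 0.10 on the log2 scale. Both compounds are set against the same 3 control arrays at each time, so their differences from control are not independent.

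The sulfotransferase Sult1c2, of the subfamily that sulfonates small phenols, fell with APAP and gave the smallest adjusted p of any member. At 2 h its log2 signal was 8.01, 7.98 and 8.31 on the APAP arrays, against 8.27, 7.95 and 8.53 on the control arrays. The 2 h groups overlapped, with a difference of -0.15 (95% interval -0.42 to 0.12, adjusted p = 0.820). At 6 h the values were 7.73, 7.36 and 7.80 with APAP, against 8.30, 8.27 and 8.31 in controls. The groups did not overlap at 6 h, and the difference was -0.67 ± 0.13 (SE, n = 3 each, adjusted p = 0.00501), or 0.630 times the control signal. At 24 h the APAP arrays gave 7.22, 7.14 and 7.35, against 8.02, 7.80 and 8.16 in controls. All 3 APAP arrays again lay below all controls, with a difference of -0.76 ± 0.13 (95% interval -1.03 to -0.49, n = 3 each, adjusted p = 0.000566) and 0.591 times the control signal. The 24 h call remained when any of the 6 arrays was left out, with differences of -0.86 to -0.67. At 6 h it was lost without APAP array 31, where the difference was -0.53 (adjusted p = 0.0513).

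AMAP gave smaller differences of Sult1c2 from control. At 2 h the AMAP arrays gave 8.20, 8.13 and 8.26, and the difference from control was -0.05 (95% interval -0.33 to 0.22). At 6 h the values were 7.90, 7.75 and 8.03 with AMAP, all below the 3 controls, and the difference was -0.40 (95% interval -0.68 to -0.13, adjusted p = 0.246). The numbers pair the arrays of that comparison, and with the number as a block the adjusted p of the same difference was 0.0165. At 24 h the AMAP arrays gave 7.94, 7.58 and 7.91, which overlapped the controls, with a difference of -0.18 (95% interval -0.46 to 0.09, adjusted p = 0.660).

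Set directly against AMAP at the same dose and time, APAP left Sult1c2 lower at 24 h, with no overlap between the arrays of the compounds. The difference was -0.57 ± 0.13 (95% interval -0.85 to -0.30, n = 3 each, adjusted p = 0.0105). Without AMAP array 30 it was -0.51 (adjusted p = 0.0668), and without AMAP array 32 it was -0.52 (adjusted p = 0.0563). At 2 h the difference between the compounds was -0.10 (95% interval -0.37 to 0.18) and at 6 h it was -0.26 (95% interval -0.54 to 0.01), neither past the threshold.

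**Figure D1:**
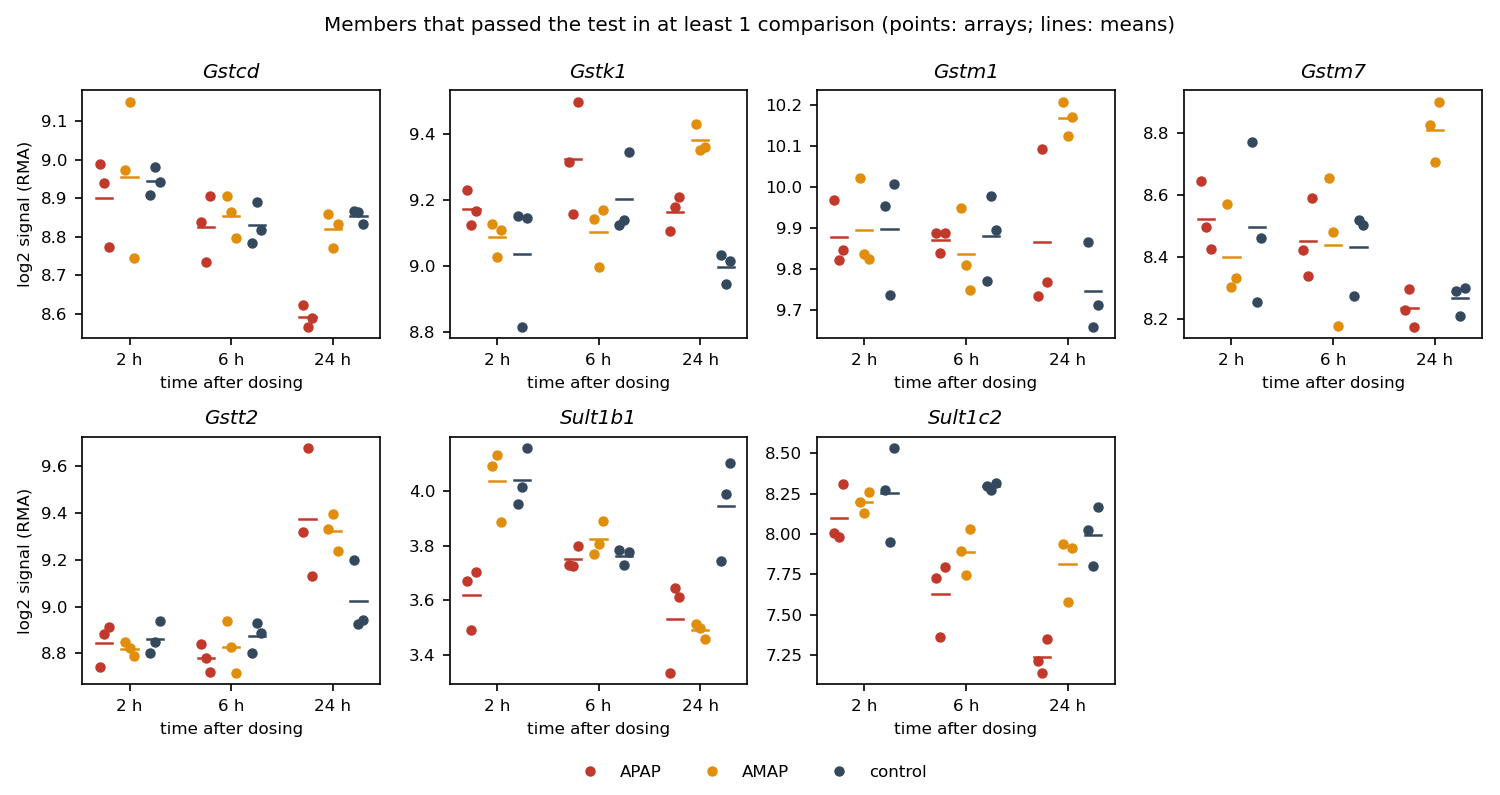
Log2 signal (RMA) on each array of the 7 members that passed the test in at least 1 comparison with control or between compounds, by time after dosing, with APAP, AMAP and control side by side. Points are arrays and lines are group means, 3 arrays a group. Sult1c2 lies at 7.14 to 7.35 on the APAP arrays at 24 h, below the control arrays at 7.80 to 8.16, and Gstm7 lies at 8.70 to 8.90 on the AMAP arrays at 24 h, above the control arrays at 8.21 to 8.30.

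The mu class gene Gstm7, which encodes a cytosolic glutathione transferase, rose with AMAP at 24 h, while APAP gave no call. The AMAP arrays gave 8.83, 8.70 and 8.90, against 8.29, 8.21 and 8.30 in controls. The groups did not overlap, and the difference was 0.54 ± 0.12 (95% interval 0.30 to 0.79, n = 3 each, limma adjusted p = 0.0241), or 1.46-fold. The APAP arrays gave 8.23, 8.30 and 8.17, which overlapped the controls, with a difference of -0.03 (95% interval -0.28 to 0.21, adjusted p = 0.909). APAP against AMAP differed by -0.58 ± 0.12 (95% interval -0.82 to -0.34, n = 3 each, limma adjusted p = 0.00357), and that call remained when any of the 6 arrays was left out. The difference of AMAP from control stayed between 0.50 and 0.60 when single arrays were left out, but its adjusted p was then 0.0649 to 0.116, so no single-array removal kept the call. At 2 and 6 h the differences of Gstm7 from control were -0.09 to 0.03 for both compounds.

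Gstm1, the best known mu class gene, also rose with AMAP at 24 h. Its signal was 10.21, 10.13 and 10.17 on the AMAP arrays, against 9.87, 9.66 and 9.71 on the controls, with no overlap. The difference was 0.42 ± 0.09 (95% interval 0.23 to 0.61, n = 3 each, limma adjusted p = 0.0265), or 1.34-fold. With APAP the values were 9.74, 10.09 and 9.77, which overlapped the controls, and the difference was 0.12 (95% interval -0.07 to 0.31, adjusted p = 0.495). All APAP arrays lay below all AMAP arrays, and the direct difference of -0.30 (95% interval -0.49 to -0.11) had an adjusted p of 0.0614. It passed with median centring (adjusted p = 0.0201), with a trend and robust prior (adjusted p = 0.0453), with the filter at a signal of 6 (adjusted p = 0.0417) and without APAP array 31 (-0.42, adjusted p = 0.00864). The call of AMAP against control was lost in 5 of 6 single-array removals, with differences of 0.38 to 0.48.

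Gstk1, a kappa class transferase found in mitochondria and peroxisomes, was the further member that rose with AMAP at 24 h. The AMAP arrays gave 9.43, 9.35 and 9.36, against 9.03, 8.94 and 9.01 in controls. The AMAP arrays all lay above the controls, with a difference of 0.39 ± 0.09 (95% interval 0.20 to 0.57, n = 3 each, limma adjusted p = 0.0390), or 1.31-fold. The APAP arrays gave 9.11, 9.18 and 9.21, in between the other groups, with a difference from control of 0.17 (95% interval -0.02 to 0.35, adjusted p = 0.282). APAP against AMAP gave -0.22 (95% interval -0.40 to -0.03, adjusted p = 0.182). Each of the 6 single-array removals ended the call of AMAP against control, with differences of 0.36 to 0.40 and adjusted p of 0.0919 to 0.164.

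The mu class was not a family of the selection. Its counts include Gstm7 and Gstm1, already called above, so they are not independent of those calls. Of the 7 mu class members, 6 had a positive difference between AMAP and control at 24 h, and 2 of them passed the test, where 46.5% of all genes were positive and 0.311% were called higher. Quantile normalisation and median centring gave the same counts. Gstm3 gave 0.37 (95% interval 0.14 to 0.60, adjusted p = 0.138), Gstm2 0.16, Gstm4 0.16 and Gstm6 0.06. Gstm5 had the opposite sign, at -0.21 (95% interval -0.46 to 0.03). With APAP at 24 h 3 of the 7 were positive, against 54.6% of all genes, and the range was from -0.29 for Gstm5 to 0.17 for Gstm3. Mu class genes lie side by side and are close in sequence, so cross-hybridisation between their probe sets is possible. Gstm3 is the member with a second probe set, which gave 0.18 for AMAP against control at 24 h.

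Gstt2 and Gstcd were called with APAP at 24 h. Gstt2, a theta class transferase, had 9.32, 9.68 and 9.13 on the APAP arrays, against 9.20, 8.92 and 8.94 on the controls. The groups overlapped, since APAP array 32 lay below control array 30, and the difference was 0.35 ± 0.10 (95% interval 0.15 to 0.56, n = 3 each, limma adjusted p = 0.0254), or 1.28-fold. Without APAP array 31 it was 0.20 (adjusted p = 0.234). Leaving out control array 31 gave 0.31 (adjusted p = 0.124), as did leaving out control array 32 (adjusted p = 0.107). AMAP gave Gstt2 values of 9.33, 9.40 and 9.24, all above the controls, with a difference of 0.30 (95% interval 0.09 to 0.51, adjusted p = 0.191).

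Gstcd encodes a protein with a glutathione transferase C-terminal domain, and whether it acts as a transferase is not established. Its APAP arrays at 24 h gave 8.62, 8.57 and 8.59, against 8.87, 8.86 and 8.83 in controls, so all APAP arrays lay below all controls. The difference was -0.26 ± 0.08 (95% interval -0.43 to -0.10, n = 3 each, adjusted p = 0.0400), or 0.834 times the control signal. Leaving out any of the 6 arrays moved it only between -0.28 and -0.25, while its adjusted p became 0.0678 to 0.123. AMAP gave 8.86, 8.77 and 8.83, with a difference from control of -0.03 (95% interval -0.20 to 0.13).

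Sult1b1, of a subfamily that sulfonates phenols and thyroid hormones, was called lower in 3 comparisons but is a dim probe set, with every array between 3.33 and 4.16. At 2 h it gave 3.67, 3.49 and 3.70 with APAP, against 3.95, 4.01 and 4.16 in controls, a difference of -0.42 ± 0.09 (n = 3 each, adjusted p = 0.0231). At 24 h the APAP arrays gave 3.33, 3.65 and 3.61 and the AMAP arrays 3.51, 3.50 and 3.46, against 3.74, 3.99 and 4.10 in controls. None of these groups overlapped its controls, and the 24 h differences were -0.41 with APAP (adjusted p = 0.00520) and -0.45 with AMAP (adjusted p = 0.0160). At 6 h the differences were -0.01 with APAP and 0.06 with AMAP. Leaving out single arrays kept the APAP call at 24 h in 6 of 6 cases, the AMAP call at 24 h in 2 of 6 and the APAP call at 2 h in 2 of 6.

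**Figure D2:**
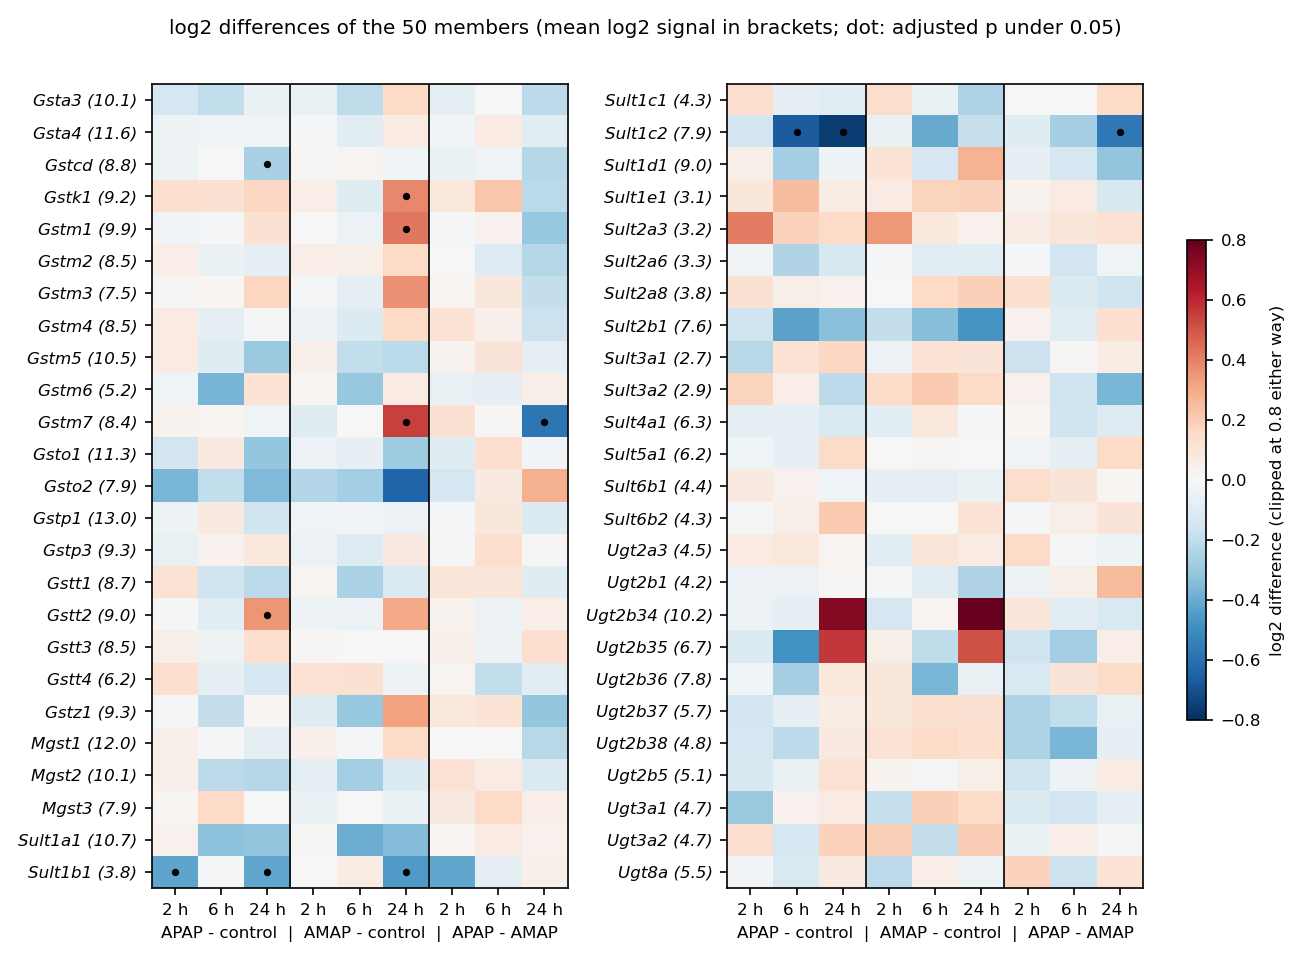
Log2 difference of each of the 50 members in 9 comparisons: APAP minus control, AMAP minus control and APAP minus AMAP at 2, 6 and 24 h. Colour gives the difference and dots mark an adjusted p under 0.05. The dots are few: 1, 1 and 4 members for APAP at 2, 6 and 24 h, 0, 0 and 4 for AMAP, and 0, 0 and 2 between the compounds.

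Counted over all 50 members, APAP against control gave 1 call at 2 h, where 0.682% of all genes were called, and 1 at 6 h, where 2.5% were. At 24 h it gave 4 calls, 1 higher and 3 lower, or 8% of the members, against 9.33% of all genes. Higher calls made up 3.36% of all genes and lower calls 5.97%, so the members' share at 24 h lay near the background. Of all genes called there 36% were higher, against 47% with quantile normalisation and 23.6% with median-centred arrays. The median APAP difference at 24 h was 0.00 over the members and 0.02 over all genes. AMAP against control gave 0 calls at 2 h, where 0.181% of all genes were called, and 0 at 6 h, where 0.456% were, with 2 and 6 members at an unadjusted p under 0.05 in limma. At 24 h AMAP gave 4 calls, 3 higher and 1 lower, or 8% of the members, against 0.727% of all genes. Higher calls made up 0.311% of all genes and lower calls 0.416%, and the median AMAP difference was 0.06 over the members and -0.01 over all genes. The AMAP count at 24 h was 0 without AMAP array 31, AMAP array 32, control array 31 or control array 32, 2 without AMAP array 30 and 2 without control array 30. For APAP at 24 h the count was 2 when APAP array 31, control array 31 or control array 32 was left out. At 2 h it was 0 without APAP array 30 or 31 or control array 31 or 32, and leaving out APAP array 31 or control array 31 at 6 h gave 0 and 2 calls, in that order.

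Between the compounds, compared as 1 pair at 3 times, APAP against AMAP gave 0 calls at 2 h, where 0.261% of all genes were called, and 0 at 6 h, where 0.707% were. At each of these times 1 member had an unadjusted p under 0.05 in limma. At 24 h 2 of 50 members differed, Gstm7 and Sult1c2, both lower with APAP, against 4.65% of all genes called in either direction and 2.78% called lower. Of all genes called there 40.2% were higher with APAP, against 45.7% with quantile normalisation and 21.2% with centred arrays. The 24 h count was 1 without AMAP array 30 or AMAP array 32, and the 2 h count was 1, Sult1b1, without AMAP array 32. The 95% interval of the difference between the compounds lay within 0.5 log2 units of 0 for 42, 44 and 40 of the 50 members at 2, 6 and 24 h. These counts include dim probe sets. Among the 31 members with a mean signal of at least 6, they were 27, 27 and 23. The median difference of the members was -0.06 at 24 h, against 0.02 for all genes. The members' share called between the compounds at 24 h, from Sult1c2 and Gstm7, thus lay near the 4.65% of all genes. No member was called at 2 or 6 h.

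The glucuronosyltransferases gave no call in the 9 comparisons, though Ugt2b34 passed under some alternatives. Ugt2b34, of the family that conjugates steroids and drugs, had 10.47, 11.16 and 10.11 on the APAP arrays at 24 h and 10.66, 10.93 and 10.51 on the AMAP arrays, against 9.96, 9.71 and 9.87 in controls. All arrays of both compounds lay above all controls. The differences were 0.73 with APAP (95% interval 0.25 to 1.22, limma adjusted p = 0.05002, not under the threshold) and 0.86 with AMAP (95% interval 0.37 to 1.35, limma adjusted p = 0.0851). With the arrays quantile normalised the APAP difference was 0.80 and passed (adjusted p = 0.0355). It also passed with the filter at a signal of 6 (adjusted p = 0.0351) and with the number as a block (adjusted p = 0.0455), though the numbers did not pair these arrays. The AMAP difference passed with only the groups compared (adjusted p = 0.0137). Without APAP array 31 the APAP difference was 0.45 (adjusted p = 0.325).

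Ugt2b35 followed the same arrays, with 6.89, 7.78 and 6.39 for APAP and 7.04, 7.51 and 6.35 for AMAP at 24 h, against 6.68, 6.32 and 6.37 in controls. In both compounds array 31 was the highest and array 32 lay among the controls. The differences of 0.56 with APAP (95% interval -0.02 to 1.14, adjusted p = 0.241) and 0.51 with AMAP (95% interval -0.07 to 1.09, adjusted p = 0.524) did not pass. Ugt2b genes are close in sequence, and cross-hybridisation was not tested. Ugt2b1 and Ugt2b5 lay below 6 in all groups, with 24 h differences from control of 0.01 and 0.11 for APAP and -0.24 and 0.05 for AMAP.

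All 11 Ugt members had a positive difference between APAP and control at 24 h, from 0.01 to 0.73, where 54.6% of all genes were positive. Of the 11, 8 had a mean signal below 6. With Ugt2b genes close in sequence, their signs may not be independent. With quantile normalisation 10 were positive and with centred arrays 9. With AMAP 8 of 11 were positive under all 3 scalings. At an unadjusted p under 0.05 there was 1 Ugt member for each compound. Enzymes of the Ugt1a locus glucuronidate acetaminophen and other phenols, and also bilirubin. The probe set of this locus gave 0.01 with APAP (95% interval -0.22 to 0.23) and -0.00 with AMAP (95% interval -0.23 to 0.23) at 24 h. None of the 12 probe sets with several symbols was called in the 9 comparisons. Across those comparisons, 0.045% to 5.35% of all 35557 probe sets were called.

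**Figure D3:**
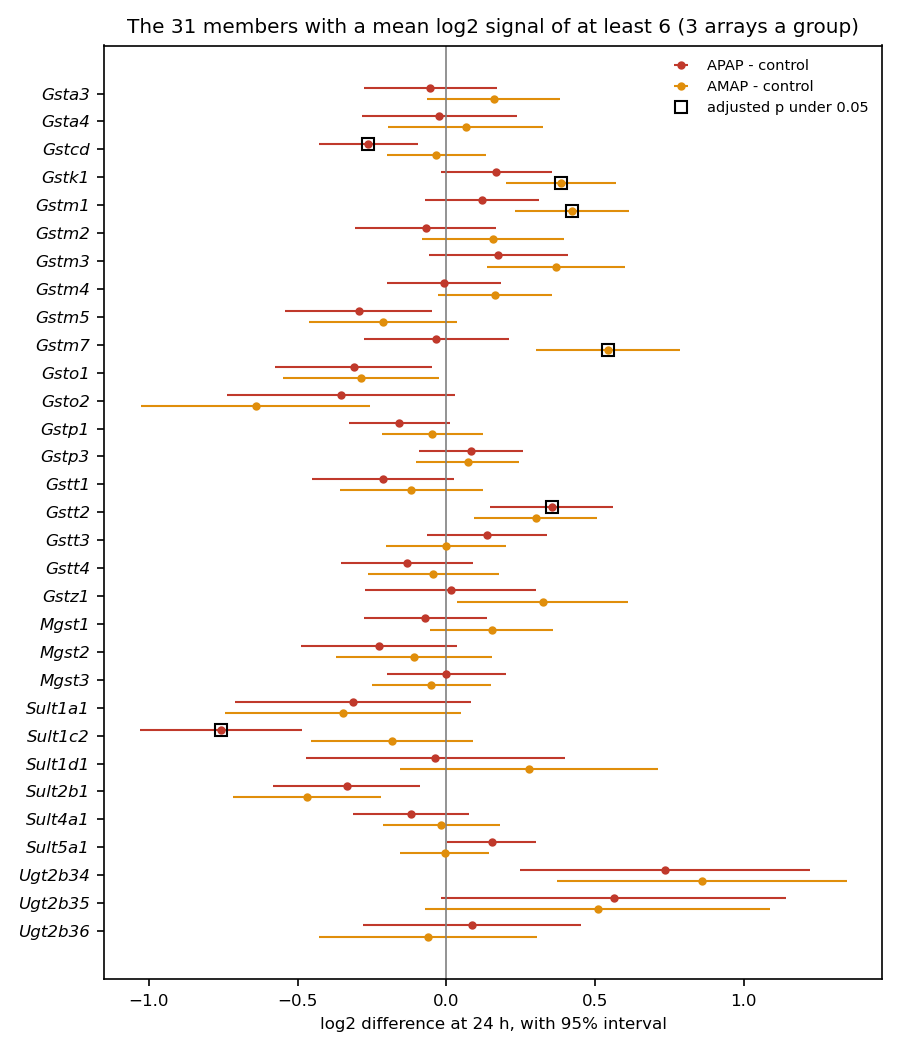
Log2 difference at 24 h with its 95% interval for the 31 members with a mean log2 signal of at least 6, APAP minus control above AMAP minus control in each row. Squares mark an adjusted p under 0.05. Sult1c2 lies at -0.76 with APAP, and the intervals of Ugt2b34 and Ugt2b35 are the widest.

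Most of the other hepatic transferases gave small differences at 24 h. Gstp1, of the pi class, had 12.79, 12.96 and 12.67 with APAP and 12.93, 12.86 and 12.96 with AMAP, against 13.00, 12.98 and 12.92 in controls. The groups overlapped, with differences of -0.16 (95% interval -0.33 to 0.01) and -0.05 (95% interval -0.22 to 0.12). Gsta4, an alpha class enzyme that conjugates the lipid peroxidation product hydroxynonenal, gave -0.02 with APAP and 0.06 with AMAP. Gsta3 gave -0.05 and 0.16, Mgst1 -0.07 and 0.15, and Gstt1 -0.21 and -0.12, in the same order of compounds, and none passed the test.

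Sult1a1, the main phenol sulfotransferase, had 10.72, 10.83 and 10.47 with APAP and 10.95, 10.50 and 10.48 with AMAP, against 11.17, 10.87 and 10.93 in controls. All APAP arrays lay below all controls, while AMAP array 30 lay among them. The differences were -0.31 (95% interval -0.71 to 0.08, adjusted p = 0.361) and -0.35 (95% interval -0.74 to 0.05, adjusted p = 0.524). Sult2a8 lay below 6 throughout, with differences of 0.03 and 0.19.

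By family, the 24 h differences from control of the 20 Gst genes ran from -0.35 (Gsto2) to 0.35 (Gstt2) with APAP and from -0.64 (Gsto2) to 0.54 (Gstm7) with AMAP. Their medians were -0.03 and 0.07, with 4 and 8 genes at an unadjusted p under 0.05. The 16 Sult genes ran from -0.76 (Sult1c2) to 0.21 (Sult6b2) with APAP and from -0.47 (Sult2b1) to 0.28 (Sult1d1) with AMAP, with medians of -0.07 and -0.01. The 3 Mgst genes gave no call in the 9 comparisons, and at 24 h lay between -0.23 (Mgst2) and -0.00 (Mgst3) with APAP and between -0.11 (Mgst2) and 0.15 (Mgst1) with AMAP. At 2 and 6 h no Gst gene was called, and the differences of the 20 from control lay between -0.37 and 0.14.

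Gsto1, Gsto2, Gstz1 and Sult2b1 were singled out after their values were seen. Gsto1, an omega class thiol transferase, had 10.92, 10.74 and 11.19 with APAP and 10.95, 10.93 and 11.04 with AMAP at 24 h, against 11.20, 11.31 and 11.27 in controls. All arrays of both compounds lay below the controls, with differences of -0.31 (adjusted p = 0.137) and -0.29 (adjusted p = 0.387). Gstz1, the maleylacetoacetate isomerase of tyrosine breakdown, gave 0.32 with AMAP (95% interval 0.04 to 0.61, adjusted p = 0.369) and 0.01 with APAP (95% interval -0.27 to 0.30).

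Gsto2, the other omega class enzyme, which reduces dehydroascorbate, had 7.55, 7.36 and 7.77 with APAP and 7.40, 7.22 and 7.19 with AMAP at 24 h, against 7.83, 7.82 and 8.10 in controls. Neither compound overlapped the controls, and the differences were -0.35 (adjusted p = 0.270) and -0.64 (95% interval -1.02 to -0.26, adjusted p = 0.111). In control cells Gsto2 was itself 0.58 lower at 24 h than at 2 h (adjusted p = 0.130). Sult2b1, which sulfonates cholesterol and pregnenolone, had 7.43, 7.30 and 7.55 with APAP at 6 h, against 7.88, 7.61 and 8.08 in controls. The groups did not overlap, and the difference of -0.43 had an adjusted p of 0.0556, or 0.0328 with the number as a block, which pairs these arrays. At 24 h Sult2b1 gave -0.34 with APAP (adjusted p = 0.0809) and -0.47 with AMAP (adjusted p = 0.0648).

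**Figure D4:**
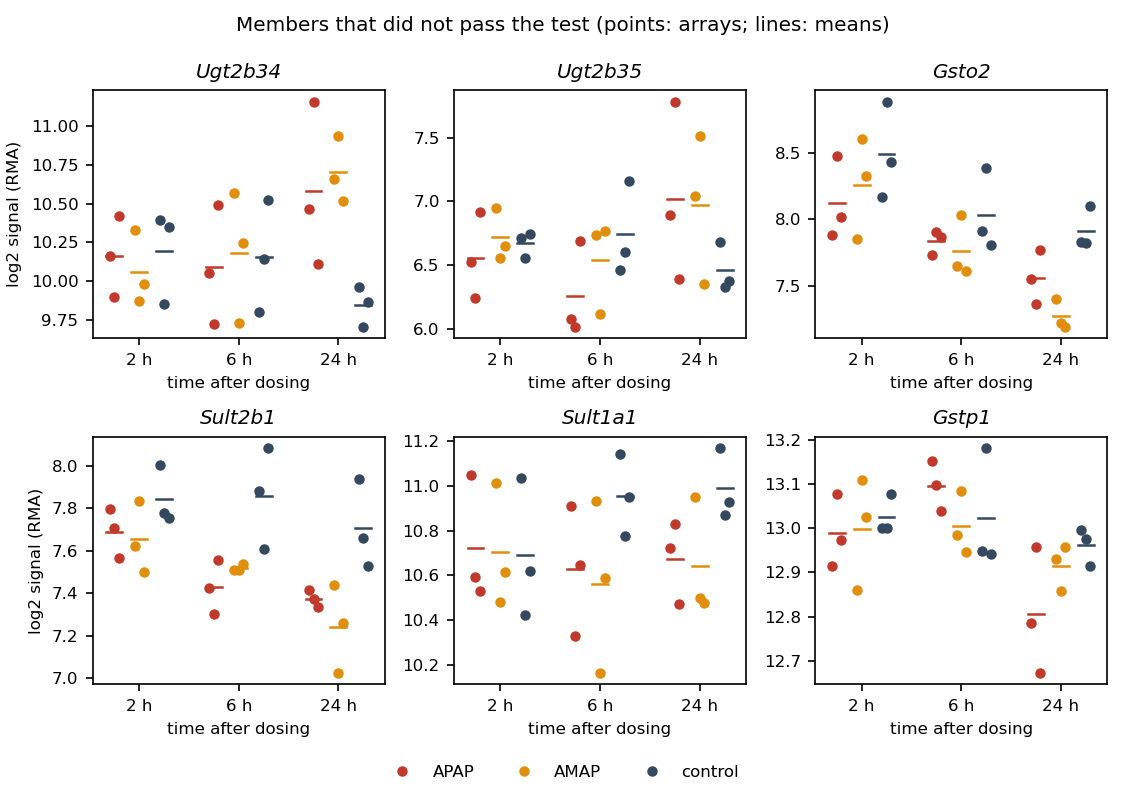
Log2 signal (RMA) on each array of 6 members that did not pass the test, by time after dosing, with APAP, AMAP and control side by side. Points are arrays and lines are means of 3 arrays. Ugt2b34 at 24 h lies at 10.11 to 11.16 with APAP and 10.51 to 10.93 with AMAP, above the controls at 9.71 to 9.96, and array 31 is the highest in both.

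As a sum, biliary markers lay lower with both compounds at 24 h, though most single markers were not called. The summed signal of the 4 matched markers, as log2 of the sum, was 10.18 to 10.96 with APAP and 10.19 to 10.95 with AMAP, against 11.29 to 11.45 in controls. Both compounds lay below all controls, with median differences of -0.51 and -0.65 over the markers. The sum is of unlogged signals, so the brighter Krt7 and Krt19, with control means of 10.54 and 9.66, weigh most in it. Krt7 gave -0.91 with APAP (limma adjusted p = 0.0654) and -1.09 with AMAP (limma adjusted p = 0.0990). Krt19 gave -0.68 and -0.98 (limma adjusted p = 0.137 and 0.0997) and Epcam -0.14 and -0.31 (limma adjusted p = 0.511 and 0.244), in the same order. Sox9, the 1 called marker, gave -0.35 with APAP (limma adjusted p = 0.0441) and 0.13 with AMAP. Between the compounds Sox9 was also called at 24 h, at -0.47 (adjusted p = 0.0107). Over the 7 hepatocyte markers, none called in limma, the median differences were 0.24 with APAP and 0.19 with AMAP, with 0 and 1 at an unadjusted p under 0.05. At 6 h the summed biliary signal was 11.05 to 11.45 with APAP and 10.70 to 11.34 with AMAP, against 11.47 to 11.675 in controls. Both compounds again lay below all controls, though no biliary marker was called at 6 h. The part of these markers in the transferase results was not tested.

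Time in culture moved no member past the threshold. In control cells 0 of 50 members were called at 6 h against 2 h, where 0.707% of all genes were, and 3 had an unadjusted p under 0.05 in limma. The count was 0 at 24 h against 6 h, where 0.015% of all genes were called, with 4 members at an unadjusted p under 0.05. It was 0 at 24 h against 2 h, where 1.14% were, with 6 at an unadjusted p under 0.05. No member's effect differed between 24 h and 2 h past the threshold, with 5 members for APAP, where 0.356% of all genes were called, and 8 for AMAP, where 0% were, at an unadjusted p under 0.05. Between 6 and 2 h and between 24 and 6 h the effects of APAP and of AMAP also gave 0 member calls in limma, with 2 and 8 members for APAP and 2 and 11 for AMAP at an unadjusted p under 0.05. Over all genes the share called was 0% and 0.01% for APAP and 0.00502% and 0% for AMAP. For Sult1c2 the effect of APAP was 0.61 log2 units lower at 24 h than at 2 h (95% interval -0.99 to -0.22, adjusted p = 0.189).

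Papss2, which makes the sulfate donor PAPS, fell with APAP at 24 h, while the other synthase, Papss1, gave -0.17 (adjusted p = 0.434). Of 16 matched genes of PAPS and sulfur metabolism, 1 rose and 2 fell, or 18.8% against 9.33% of all genes. Papss2 gave 7.90, 7.91 and 7.57 with APAP, against 8.42, 8.38 and 8.27 in controls, with no overlap and a difference of -0.56 (adjusted p = 0.00573). Tst, the mitochondrial thiosulfate sulfurtransferase, fell by 0.56 (adjusted p = 0.000350), and Sqor, which oxidises sulfide, rose by 0.43 (adjusted p = 0.0377). The Papss2 and Tst calls remained in all 6 single-array removals, and that of Sqor in 1. AMAP at 24 h gave 0 calls of 16, where 0.727% of all genes were called, and 1 at an unadjusted p under 0.05 in limma, Papss2. It had 8.05, 8.02 and 7.67 on the AMAP arrays and a difference of -0.44 (limma adjusted p = 0.107).

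Of 21 matched genes of glutathione metabolism, 1 rose and 3 fell with APAP at 24 h, or 19% against 9.33% of all genes. Cth, cystathionine gamma-lyase, which makes cysteine for glutathione, gave 9.03, 9.13 and 9.25 with APAP and 9.91, 9.79 and 9.87 with AMAP, against 9.45, 9.65 and 9.75 in controls. The 3 groups did not overlap, and Cth fell by 0.49 with APAP against control (adjusted p = 0.0113) and by 0.72 against AMAP (adjusted p = 0.000486). Ggt6, of the gamma-glutamyltransferase family, fell by 0.40 with APAP against control (adjusted p = 0.00328) and by 0.46 against AMAP (adjusted p = 0.00136). Gsr, glutathione reductase, fell by 0.32 (adjusted p = 0.0493) and Gss, glutathione synthetase, rose by 0.28 (adjusted p = 0.0280) against control. In single-array removals the calls against control remained in 6 of 6 for Ggt6, 4 of 6 for Cth, 3 of 6 for Gss and 1 of 6 for Gsr. The calls of Cth and Ggt6 between the compounds remained in 6 of 6.

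The glutathione-degrading enzyme Chac1 rose early with both compounds. At 2 h it gave 8.76, 8.92 and 9.22 with APAP and 8.83, 9.06 and 9.25 with AMAP, against 8.07, 8.26 and 8.24 in controls. Neither compound overlapped the controls, with differences of 0.78 (adjusted p = 0.00328) and 0.86 (adjusted p = 0.00628), and both calls remained in all 6 single-array removals. It was the 1 called gene of the 21 with each compound at 2 h, where 0.682% of all genes were called with APAP and 0.181% with AMAP. At 6 h Ggt6 was the 1 called gene with APAP, at -0.35 (limma adjusted p = 0.0237), where 2.5% of all genes were called. With the number as a block, which pairs these arrays, Chac1 was called there too, at 0.49 (adjusted p = 0.0639 without the block and 0.00761 with it). None was called with AMAP at 6 h, where 0.456% of all genes were called and 4 of the 21 had an unadjusted p under 0.05 in limma.

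Of 13 matched genes of conjugate export and hydrolysis, 2 rose and 1 fell with APAP at 24 h, or 23.1% against 9.33% of all genes. Abcc4, an exporter of conjugates, gave 9.39, 8.84 and 9.30 with APAP, against 8.68, 8.65 and 8.67 in controls. All APAP arrays lay above all controls, and the difference was 0.51 (adjusted p = 0.00459), kept in 6 of 6 single-array removals. With AMAP it gave 9.19, 8.85 and 9.10, also above all controls, with a difference of 0.39 (adjusted p = 0.117). Abcc5, a related exporter, rose by 0.29 with APAP against control (adjusted p = 0.0271, kept in 2 of 6) and by 0.40 against AMAP (adjusted p = 0.00499, kept in 6 of 6). Gusb, the lysosomal beta-glucuronidase, fell by 0.36 (adjusted p = 0.00978, kept in 5 of 6).

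Slc35d1, which carries UDP-glucuronate into the endoplasmic reticulum, rose by 0.28 with APAP at 24 h (adjusted p = 0.00889). It was the 1 gene called of 9 matched genes on a list drawn up around UDP-glucuronate supply, not all of them specific to it. Among 21 other conjugating enzymes Pemt, which methylates phosphatidylethanolamine, fell by 0.46 (adjusted p = 0.00596) and was also the 1 gene called. Of all genes, 9.33% were called in this comparison. Slc35d1 lost its call without control array 31 (0.25, adjusted p = 0.0540) and Pemt without APAP array 31 (-0.35, adjusted p = 0.0596). Of 28 regulators of these genes, 2 fell with APAP at 24 h, or 7.14% against 9.33% of all genes. They were Cul3, the scaffold of the ligase that degrades NRF2, by 0.25 (adjusted p = 0.0259), and the liver factor Foxa2 by 0.29 (adjusted p = 0.0282). Single-array removals kept the call of Cul3 in 2 of 6 cases and of Foxa2 in 0 of 6. AMAP at 24 h gave 0 calls in each of the 6 lists in limma, where 0.727% of all genes were called. Across the lists 15 genes had an unadjusted p under 0.05 in limma.

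Between APAP and AMAP at 24 h, the 7 calls outside glutathione metabolism and export were lower with APAP without the number as a block. Of all genes, 4.65% were called in this comparison and 2.78% were called lower. Whether the calls in any list, with the sizes given above, exceeded that share was not tested. Tst, of the sulfur list, differed by -0.42 (adjusted p = 0.00768, kept in 3 of 6 single-array removals). Gamt, which makes creatine, differed by -0.63 (adjusted p = 0.00124, kept in 6 of 6) and Tpmt, thiopurine methyltransferase, by -0.44 (adjusted p = 0.0459, kept in 0 of 6). Of the regulators, Foxa2 differed by -0.36 (adjusted p = 0.0118, kept in 5 of 6), Cul3 by -0.27 (adjusted p = 0.0235, kept in 2 of 6), Foxa1 by -0.32 (adjusted p = 0.0297, kept in 1 of 6) and Nfe2l1 by -0.40 (adjusted p = 0.0398, kept in 1 of 6). With the number as a block, which pairs these arrays, 2 regulators were called higher with APAP, Cebpb at 0.32 (adjusted p = 0.0283) and Mafk at 0.37 (adjusted p = 0.0497). The block also added Gclm of glutathione metabolism at -0.43 (adjusted p = 0.0182) and the exporter Abcg2 at 0.27 (adjusted p = 0.0160). These 4 genes were named after their values were seen.

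At 6 h Mettl7b, a methyltransferase that acts on thiols in human cells, fell by 0.40 with APAP (adjusted p = 0.0275) and by 0.47 with AMAP (adjusted p = 0.0288). Its values were 10.08, 9.87 and 10.08 with APAP and 10.08, 9.83 and 9.92 with AMAP, against 10.36, 10.32 and 10.54 in controls, with no overlap. Tst fell by 0.36 with APAP at 6 h (adjusted p = 0.0377), and with AMAP it gave -0.34 (adjusted p = 0.110). The numbers pair the arrays of the AMAP comparison, where the adjusted p of Tst with the block was 0.0428. For APAP against control at 6 h the block added Chac1, higher and given above, and 3 lower genes named after their values were seen. The lower genes were Baat, Ppara and Nr1h4 (adjusted p = 0.0380, 0.0438 and 0.0457 with the block). The call of Mettl7b remained in 3 of 6 single-array removals for APAP and 2 of 6 for AMAP, and that of Tst in 1 of 6.

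In control cells, 3 of the 21 genes of glutathione metabolism were lower at 24 h than at 2 h, or 14.3% against 1.14% of all genes. Gclc, the catalytic subunit of glutamate-cysteine ligase, was lower by 0.46 at 6 h (adjusted p = 0.0354) and by 0.53 at 24 h (adjusted p = 0.0176) than at 2 h. At 24 h Gsr (-0.45, adjusted p = 0.0308), Cth (-0.51, adjusted p = 0.0351) and Ugdh, which makes UDP-glucuronate (-0.45, adjusted p = 0.0467), were lower than at 2 h as well, and Arsa, arylsulfatase A, was higher (0.44, adjusted p = 0.0311). In single-array removals these calls remained in 2 of 6 for Gclc at either time, 1 of 6 for Gsr, 0 of 6 for Cth, 1 of 6 for Ugdh and 0 of 6 for Arsa.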

How the data were processed

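Total RNA from TAMH cells was hybridised to Affymetrix Mouse Gene 1.0 ST arrays, per the labels' protocols. The deposited values are log2 signals made by the authors with RMA in Affymetrix Expression Console 1.1, per the submitters' processing notes, with no arrays pooled; that the base is 2 follows from their size. Of 35557 probe sets, 21789 carried a single gene symbol in the platform annotation, 1621 several and 12147 none, and the single-symbol probe sets gave 19938 genes. All 50 members carry the same symbol in RefSeq. Nothing was normalised again, no dim gene was left out, and depth does not apply to arrays. limma 3.58.1 in R 4.3.3 fitted 9 group means (18 residual degrees of freedom, prior 7.3), with two-sided tests. Named were all called members, a panel of 18 transferases, of which 13 were matched, and up to 4 called genes per partner list and comparison. The numbers 30, 31 and 32 paired the arrays in 5 of 9 comparisons of treatments, by correlation of deviations from group means above 0.1 for every number. The pipeline was tested on simulated data. The members and lists were chosen with earlier results of these data known. Alternatives were a block, other scalings, another prior, fewer groups, a filter, mean probe sets and leaving out arrays.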

Additional observations from a re-analysis of the deposited data

How the results depend on the processing

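No call of a named gene changed sign under any alternative run. For APAP against control at 2 h the count of called members, 1, became 0 with a trend and robust prior, with only the groups compared and with genes of at least 6 alone, where the dim Sult1b1 was not tested. At 6 h the count of 1 became 2 with a replicate block, with quantile normalisation, with a trend and robust prior and with the filter at 6, each adding Sult2b1. At 24 h the count of 4 became 1, Sult1c2, with only the groups compared. For AMAP at 6 h the count of 0 became 1, Sult1c2, with the replicate block. Between the compounds the count of 0 at 2 h became 1, Sult1b1, with the block, quantile normalisation or median centring, and the count of 2 at 24 h became 4 with median centring, which added Gstcd and Gstm1; Gstm1 was also added there with a trend and robust prior and with the filter at 6. Ugt2b34 gained a call at 24 h for APAP with the block, quantile normalisation and the filter, and for AMAP with only the groups compared. The difference of the APAP effect between 24 and 2 h went from 0 members to 1, Sult1c2, with the block. The block gave 6 members in place of 4 for APAP and for AMAP at 24 h and left the other member counts as they were. Leaving out 1 array or 1 number gave 0 to 1, 0 to 2 and 0 to 5 members for APAP at 2, 6 and 24 h, 0 to 0, 0 to 0 and 0 to 2 for AMAP, 0 to 1, 0 to 0 and 1 to 3 between the compounds, and 0 for control times and effect differences. Over all genes the count for AMAP at 24 h was 145, against 345 with the block and 247 with the filter. At 6 h it was 91, against 200 with the block and 5 with only the groups compared, and at 2 h it was 36, against 0 with only the groups compared. Counts of the partner lists under these alternatives were added after seeing the data. The cause of these moves was not tested. The precision is limited by 3 arrays a group.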
